A study of Homo sapiens with 12 samples.

Results

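The dual-specificity MAP kinase phosphatases of the DUSP family were followed across BT474 breast cancer cells that differed in genotype and drug treatment. The 9 genes DUSP1, DUSP2, DUSP4, DUSP5, DUSP6, DUSP7, DUSP8, DUSP10 and DUSP16 were taken by symbol from a count table of 27814 named genes. All 9 were found, and all 9 were among the 16208 genes that passed the filter on low counts.

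MAP kinases are switched on by phosphorylation of a threonine and a tyrosine in their activation loop, and these phosphatases switch them off by removing both phosphates. DUSP1, DUSP2, DUSP4 and DUSP5 encode nuclear enzymes whose genes are induced by growth factors or stress. DUSP6 and DUSP7 encode cytoplasmic enzymes that prefer ERK, while DUSP8, DUSP10 and DUSP16 encode enzymes that prefer the stress kinases JNK and p38. Several of the genes are themselves transcribed in response to ERK signalling and so form a negative feedback loop. HER2 signals through RAS and ERK in HER2-amplified breast cancer cells.

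BT474 is a long-used breast cancer line with amplified HER2 and hormone receptors. Parental cells and cells labelled BRD8 KO each received DMSO, the solvent control, or 200 nM neratinib for 4 h, an irreversible inhibitor of HER2 and related receptor kinases, and no other agent is named in the labels. BRD8 encodes a bromodomain protein of a histone-acetylating chromatin complex. Each of the 4 groups had 3 libraries. Whether the KO-labelled cells were 1 clone or a pool, where BRD8 was edited and whether replicates were separate cultures are not given in the sources used here. Every p-value below therefore reflects only the variation among the libraries of a group, which may be technical. The series addresses BRD8 in resistance to combined oestrogen receptor and HER2 blockade.

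Libraries held 32471198 to 44726160 counts over named genes. Levels are given in CPM, a gene's count relative to its library's total after scaling by TMM (trimmed mean of M-values). The BRD8 transcript stood at 64.1 ± 0.706 CPM for parental and 67.4 ± 1.39 CPM for KO-labelled cells under DMSO (SD, n = 3), and under neratinib at 235.6 ± 5.23 CPM and 156.0 ± 2.44 CPM. It was not lower in the KO-labelled DMSO libraries, so the label is used as a label only. Luminal and HER2-amplicon markers were present, with ERBB2 at 8174 CPM in parental DMSO cells. Of 14 markers of blood, fibroblast and endothelial cells, CD3E had at most 1 count in any group, PTPRC was at most 0.223 CPM and PDGFRB at most 0.0307 CPM in any library. CD68, another of the blood and immune markers, was higher, with means of 3.68 CPM in parental DMSO and 6.28 CPM in parental neratinib libraries. In KO-labelled cells its means were 5.13 and 6.56 CPM. The endothelial marker CDH5 had means of 0.166 and 0.146 CPM in parental and 1.23 and 0.917 CPM in KO-labelled cells, DMSO first. Markers of the 14 with no count in a group numbered 4 in parental DMSO, 4 in parental neratinib, 2 in KO-labelled DMSO and 0 in KO-labelled neratinib libraries. The 14 summed to 85.6 to 92.4 CPM in parental DMSO, 109.9 to 114.6 in parental neratinib, 119.9 to 126.1 in KO-labelled DMSO and 160.1 to 162.7 in KO-labelled neratinib libraries, most of it COL1A1, and VWF went from 11.9 to 38.1 CPM between the first and the last of these groups. Mitochondrially encoded genes held 2.81% to 3.12% of counts in parental and 2.55% to 2.99% in KO-labelled DMSO libraries, against 4.24% to 4.90% and 5.12% to 5.26% in neratinib. The part of these shifts in the results that follow was not tested.

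**Figure D1:**
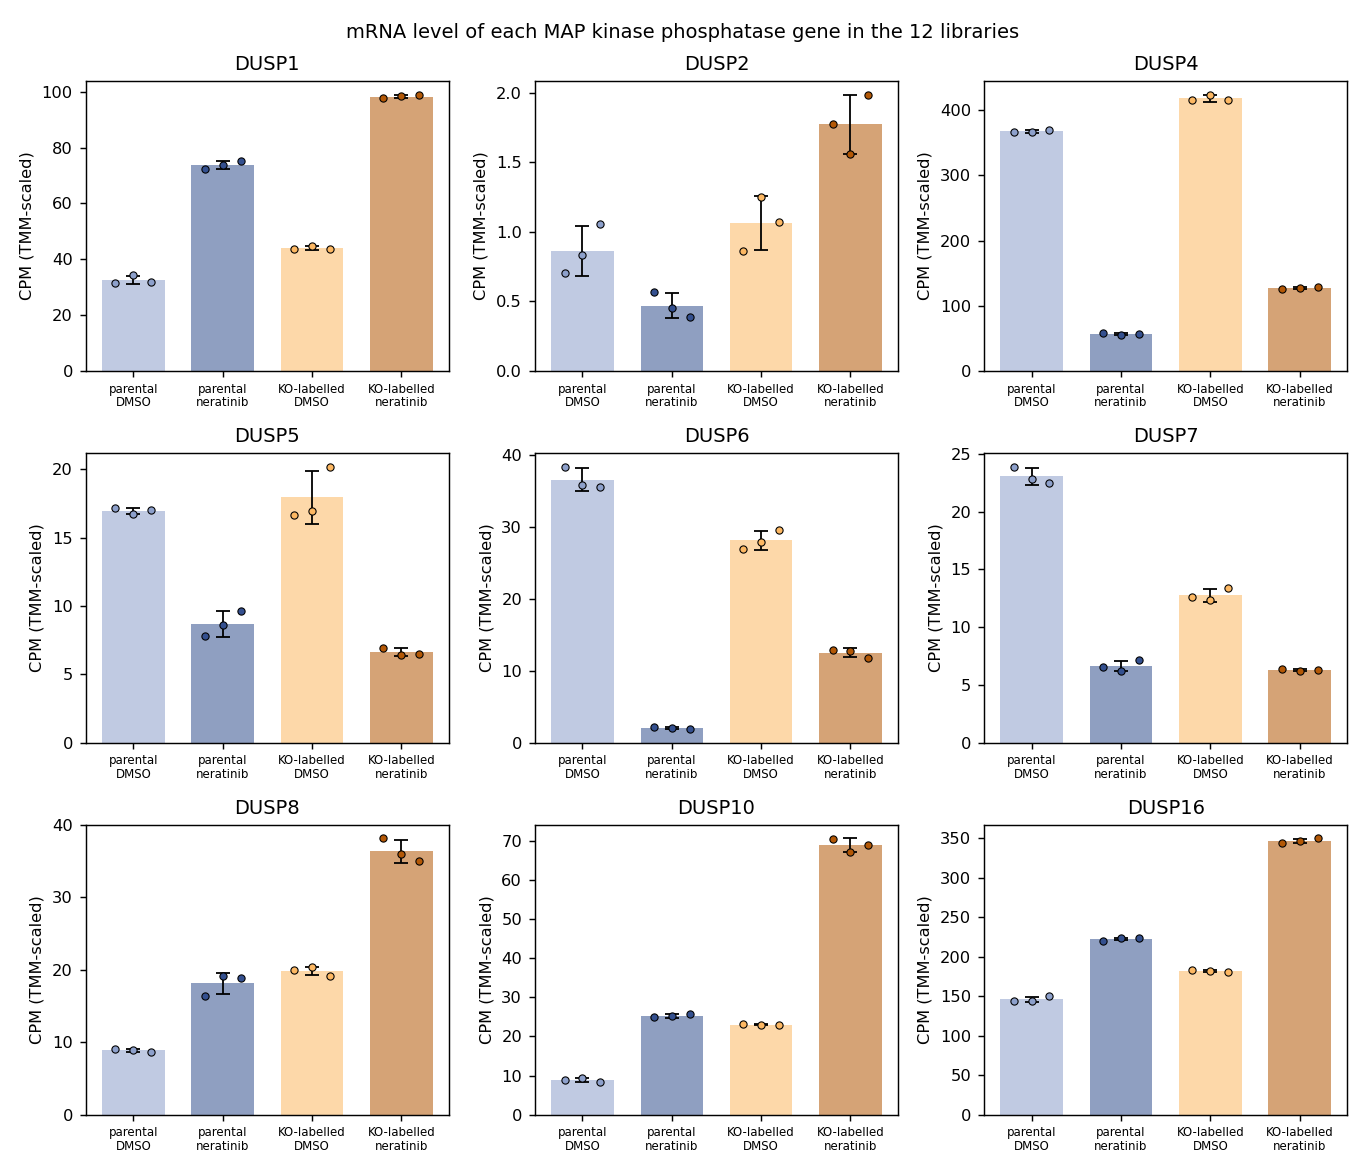
TMM-scaled CPM of each of the 9 phosphatase genes in the 4 groups; bars are means, error bars SD over 3 libraries, and points are libraries, with a separate axis from 0 for each gene. DUSP6 falls to 2.10 CPM in parental but only to 12.5 CPM in KO-labelled neratinib libraries, while DUSP10 and DUSP16 are highest in KO-labelled neratinib libraries.

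In parental cells given DMSO the family's mRNA was mostly DUSP4, DUSP16 and DUSP1. Levels were compared between genes per length, as CPM per kilobase of exon in GENCODE 29. DUSP4 stood at 50.6 ± 0.253, DUSP16 at 25.5 ± 0.532 and DUSP1 at 16.1 ± 0.709 CPM per kilobase (SD, n = 3). These 3 genes made up 43.6% ± 0.196, 22.0% ± 0.431 and 13.9% ± 0.586 of the summed level of the 9. DUSP6 (7.89 ± 0.341), DUSP5 (6.49 ± 0.0889), DUSP7 (4.08 ± 0.131), DUSP10 (3.05 ± 0.171) and DUSP8 (1.92 ± 0.0514 CPM per kilobase) followed. DUSP2, best known from activated blood cells, was lowest at 0.447 ± 0.0921. No 2 neighbours in this order had overlapping libraries, although DUSP7 stood above DUSP5 when the longest transcript was used as the length.

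In GENCODE 29 (GRCh38), DUSP6 spans positions 89347232 to 89353271 of chromosome 12, minus strand. Of its 4632 exonic bases, 1875 are also exonic in AC024909.2, a gene on the opposite strand. The library kit does not mark strand, so reads of the pair cannot be told apart there. Of the 4431 windows of 50 bases in the longest DUSP8 transcript, 86 also occur in the pseudogenes DUSP8P3, DUSP8P4 or DUSP8P5, and the longest transcripts of the other 7 genes shared no window with another gene. DUSP8 is on chromosome 11 from 1554044 to 1571920, and DUSP1 on chromosome 5 from 172768090 to 172771195, both on the minus strand.

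Promoters of 3 genes are shown as examples. In the neratinib responses described next, DUSP7 fell, and DUSP1 and DUSP8 rose. Each line gives the 250 bases before the gene's start from RefSeq (GRCh38.p14), read 5′ to 3′ on the gene's strand. For DUSP7 and DUSP8 the stretch after this start was not found whole in a GENCODE 29 transcript of the gene. Positions there hold for the RefSeq start only. Capitals mark matches to the cAMP response element TGACGTCA, its core TGACG, and the E-box CACGTG.
DUSP1 (chr5:172771196-172771445, minus strand): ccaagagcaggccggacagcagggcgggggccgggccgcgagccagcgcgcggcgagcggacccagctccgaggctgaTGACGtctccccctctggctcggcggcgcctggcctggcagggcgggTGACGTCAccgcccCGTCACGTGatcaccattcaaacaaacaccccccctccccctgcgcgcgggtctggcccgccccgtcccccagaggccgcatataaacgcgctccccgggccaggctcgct
DUSP8 (chr11:1572272-1572521, minus strand): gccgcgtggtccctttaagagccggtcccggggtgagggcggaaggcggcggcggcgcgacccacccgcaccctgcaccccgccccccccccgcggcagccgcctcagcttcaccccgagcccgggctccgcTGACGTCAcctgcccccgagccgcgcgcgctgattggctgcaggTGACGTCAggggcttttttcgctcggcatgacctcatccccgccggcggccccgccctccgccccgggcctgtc
DUSP7 (chr3:52056572-52056821, minus strand): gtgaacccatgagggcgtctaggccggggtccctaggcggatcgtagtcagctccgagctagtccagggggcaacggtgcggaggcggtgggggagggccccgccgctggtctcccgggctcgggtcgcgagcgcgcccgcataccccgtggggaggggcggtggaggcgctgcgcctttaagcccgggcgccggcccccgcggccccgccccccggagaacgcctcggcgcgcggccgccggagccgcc
The full TGACGTCA element began at positions -118 and -74 of the DUSP8 and at -125 of the DUSP1 window, counted back from the start. Among 35116 promoters of the table, 1.65% held this element in the same 250 bases. No motif searched matched in the windows of DUSP7, DUSP6, DUSP10 and DUSP16. Of these, DUSP10 and DUSP16 rose with neratinib in parental cells, as DUSP1 and DUSP8 did, while DUSP6 and DUSP7 fell. With windows for only 7 genes, whether matches relate to the direction of the response was not tested. The others searched were the CArG box, the ETS site CCGGAAGT, the AP-1 site TGANTCA and the forkhead site GTAAACA, on both strands, and the core TGACG overlaps the full element. They matched in 1.16%, 3.42%, 6.57% and 2.98% of all promoters, the core in 21.2% and the E-box in 6.34%. A match describes letters and not binding. Of the 9 genes, 7 had an entry in the promoter table, and DUSP4 and DUSP5 had none. DUSP2 held the E-box and no cAMP element. The DUSP6 window lies within the first exon of its GENCODE 29 transcript and is not shown. For DUSP16, as for DUSP7 and DUSP8, the stretch after the start was not found whole in a GENCODE 29 transcript. The DUSP10 window, from 1 of 2 entries, partly overlaps the gene's GENCODE 29 span. The absence of matches in these windows holds for the RefSeq starts used only.

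With neratinib, mRNAs of the ERK-selective phosphatases fell in parental cells and those of the JNK- and p38-selective ones rose. DUSP4, DUSP5, DUSP6, DUSP7 and DUSP2 fell, and DUSP1, DUSP8, DUSP10 and DUSP16 rose. All 9 passed the test, 4 upwards and 5 downwards, with 41.8% and 38.9% of all genes called in these directions (80.7% in all), a share at which passing alone says little of the 9. At least 2-fold changes were called for 6 of the 9, 3 up and 3 down, against 13.0% and 7.78% of all genes (20.8% in all). The median log2 fold change was -0.85 over the 9 and 0.04 over all genes tested. Bulk RNA does not tell fewer expressing cells from less RNA per cell. For groups of libraries said here or below not to overlap, the share of all genes that separate in this way was not computed.

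DUSP6, the cytoplasmic ERK phosphatase, showed the widest change of the 9. Its level was 38.4, 35.8 and 35.5 CPM in the parental DMSO libraries and 2.22, 2.11 and 1.95 CPM with neratinib. The groups lay far apart, and 5.73% of the DMSO mean was left. On the log2 scale this is -4.12 (SE 0.0703, edgeR quasi-likelihood test, p adjusted by Benjamini-Hochberg = 6.42e-40). DUSP7, its closest relative in substrate and location, was at 23.9, 22.8 and 22.5 CPM in DMSO and 6.54, 6.25 and 7.14 CPM in neratinib. It fell by 1.79 on the log2 scale (SE 0.0587, edgeR adjusted p = 3.41e-29).

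DUSP4, a nuclear phosphatase of ERK and JNK and the most abundant of the family at the start, went from 366.6, 366.4 and 369.7 CPM to 57.6, 54.8 and 57.4 CPM. Its fall of 6.48-fold (log2 fold change -2.70, SE 0.0223, edgeR adjusted p = 1.57e-51) was also the largest loss in CPM, 310.9. DUSP5, a nuclear phosphatase specific for ERK, went from 17.2, 16.7 and 17.0 CPM to 7.81, 8.61 and 9.66 CPM. The libraries did not overlap, and the log2 fold change was -0.97 (SE 0.0684, edgeR adjusted p = 4.58e-17). DUSP2 rested on few reads, with 28, 31 and 40 counts in DMSO and 26, 15 and 15 in neratinib. Its level was 0.704, 0.832 and 1.06 CPM in DMSO and 0.567, 0.453 and 0.390 CPM in neratinib. It fell by 0.85 on the log2 scale (SE 0.253, edgeR adjusted p = 0.00231), with an SE several times that of the other members.

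Among the genes that rose, DUSP10, a JNK and p38 phosphatase, changed most. It was at 8.75, 9.42 and 8.45 CPM in DMSO and reached 24.9, 25.1 and 25.8 CPM in neratinib, a log2 fold change of 1.51 (SE 0.0501, edgeR adjusted p = 5.49e-29). DUSP1, the broad nuclear phosphatase, rose from 31.5, 34.2 and 31.99 CPM to 72.3, 73.6 and 75.1 CPM. It moved opposite to the other 3 nuclear genes (log2 fold change 1.18, SE 0.0320, edgeR adjusted p = 2.95e-32). DUSP8, another JNK and p38 phosphatase, went from 9.11, 8.86 and 8.63 CPM to 16.4, 19.1 and 18.8 CPM (log2 fold change 1.02, SE 0.0610, edgeR adjusted p = 1.61e-19). DUSP16, which restrains JNK, went from 144.5, 144.3 and 149.7 CPM to 220.4, 223.2 and 223.7 CPM. Its 1.52-fold rise (log2 fold change 0.61, SE 0.0202, edgeR adjusted p = 7.12e-29) was the smallest of the 4 rises by fold and the largest in CPM, 76.3.

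In KO-labelled cells the same 4 genes rose and DUSP4, DUSP5, DUSP6 and DUSP7 fell, but DUSP2 rose. All 9 passed the test again, 5 upwards and 4 downwards, against 38.9% and 38.4% of all genes (77.2% in all). Changes of at least 2-fold were called for 2 upwards and 4 downwards, against 9.42% and 5.30% of all genes (14.7% in all). DUSP6 was at 26.9, 27.9 and 29.5 CPM in DMSO and 12.9, 12.8 and 11.8 CPM in neratinib, so 44.4% of the DMSO mean was left. The groups did not overlap (log2 fold change -1.17, SE 0.0512, edgeR adjusted p = 2.96e-24). DUSP7 went from 12.6, 12.3 and 13.4 CPM to 6.36, 6.19 and 6.29 CPM (log2 fold change -1.02, SE 0.0671).

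DUSP4 in these cells went from 415.0, 423.5 and 415.5 CPM to 125.9, 127.1 and 128.7 CPM, a 3.29-fold fall (log2 fold change -1.72, SE 0.0201, edgeR adjusted p = 7.12e-46). DUSP5 went from 16.7, 17.0 and 20.2 CPM to 6.95, 6.45 and 6.48 CPM and had the second largest fall by fold (log2 fold change -1.43, SE 0.0724). DUSP2 had 34, 55 and 35 counts in DMSO and 60, 66 and 71 in neratinib, or 0.862, 1.25 and 1.07 CPM and 1.77, 1.56 and 1.98 CPM. Its libraries did not overlap and the direction was upward (log2 fold change 0.72, SE 0.182, edgeR adjusted p = 0.000445).

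DUSP10 reached 70.6, 67.1 and 69.1 CPM from 23.1, 22.9 and 22.9 CPM (log2 fold change 1.59, SE 0.0352, edgeR adjusted p = 1.87e-35). DUSP16 reached 344.3, 346.1 and 349.9 CPM from 183.5, 181.9 and 180.5 CPM (log2 fold change 0.93, SE 0.0193). DUSP1 reached 97.6, 98.4 and 98.8 CPM from 43.7, 44.9 and 43.7 CPM (log2 fold change 1.16, SE 0.0295). DUSP8 reached 38.2, 36.0 and 35.0 CPM from 20.0, 20.4 and 19.2 CPM (log2 fold change 0.87, SE 0.0463). All 4 were above their DMSO libraries in every neratinib library, and edgeR adjusted p was at most 3.37e-21 for these 4. The share of all genes that separate in this way was not computed.

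**Figure D2:**
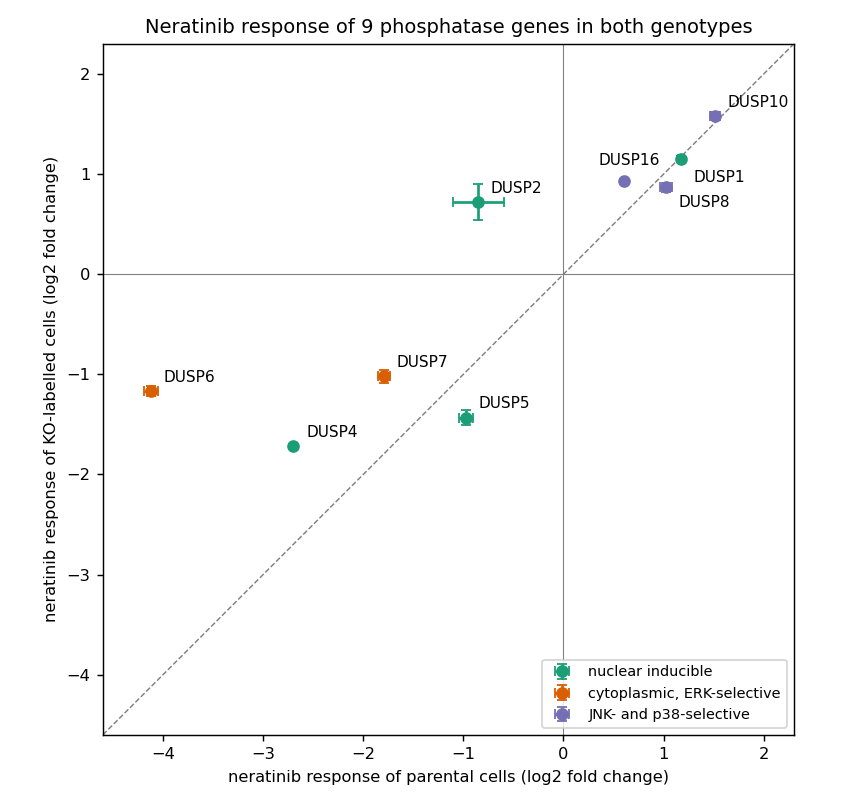
Neratinib response of each phosphatase gene in parental cells (x axis) and in KO-labelled cells (y axis), as log2 fold change over DMSO; bars are standard errors and the dashed line marks equal responses. DUSP6 (-4.12 against -1.17) lies farthest from the line, DUSP2 has opposite signs, and DUSP1, DUSP8 and DUSP10 lie near the line.

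The response to neratinib differed between the genotypes for 6 of the 9 genes, against 46.1% of all genes tested. It was positive for 5 and negative for 1, against 21.5% and 24.6% of all genes. The difference, tested as an interaction, is the log2 response in KO-labelled minus that in parental cells. It was 2.95 for DUSP6 (SE 0.0980, edgeR adjusted p = 4.42e-27), which fell 17.4-fold in parental and 2.24-fold in KO-labelled cells. DUSP2 differed by 1.57 (SE 0.311, edgeR adjusted p = 4.62e-05). DUSP6 and DUSP2 differed by at least 2-fold, a size called upward for 1.48% and downward for 1.79% of all genes (3.27% in all).

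DUSP4 and DUSP7 also fell less in KO-labelled cells, with differences of 0.98 (SE 0.0304, edgeR adjusted p = 4.46e-28) and 0.77 (SE 0.0929, edgeR adjusted p = 2.67e-09). DUSP5 was the exception among the ERK-directed genes, since it fell more in KO-labelled cells (-0.46, SE 0.103, edgeR adjusted p = 0.000247). DUSP16 rose more in KO-labelled cells (0.32, SE 0.0280, edgeR adjusted p = 3.64e-13). For the other 3 genes no difference was called. The estimates and 95% intervals were -0.02 (-0.11 to 0.07) for DUSP1, -0.15 (-0.31 to 0.01) for DUSP8 and 0.07 (-0.06 to 0.20) for DUSP10, with edgeR adjusted p of 0.729, 0.108 and 0.368. Without parental neratinib replicate 1, the DUSP8 difference was -0.21 and was called (edgeR adjusted p = 0.0272).

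In DMSO, KO-labelled cells held more mRNA of the JNK and p38 phosphatases and less of the cytoplasmic ERK phosphatases than parental cells. Of the 9 genes, 5 were higher and 2 lower, against 36.0% and 35.6% of all genes (71.6% in all). The parental DMSO libraries also serve as controls for the parental neratinib response. DUSP10 was at 23.1, 22.9 and 22.9 CPM against 8.75, 9.42 and 8.45 CPM, a 2.59-fold difference (log2 1.37, SE 0.0511, edgeR adjusted p = 1.62e-26). DUSP8 was 2.24-fold higher (log2 1.17, SE 0.0600, edgeR adjusted p = 1.91e-21). These were the 2 members changed at least 2-fold, a size called upward for 8.89% and downward for 3.46% of all genes (12.4% in all).

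DUSP1, DUSP16 and DUSP4 were higher by less, with log2 differences of 0.44, 0.32 and 0.19 and edgeR adjusted p of at most 3.14e-12, and no library overlapped. DUSP7 was lower at 12.6, 12.3 and 13.4 against 23.9, 22.8 and 22.5 CPM (log2 -0.86, SE 0.0517, edgeR adjusted p = 4.82e-19). DUSP6 was lower by less (log2 -0.38, SE 0.0421, edgeR adjusted p = 6.61e-11), with every KO-labelled library under every parental one. Here too, the share of all genes that separate in this way was not computed. No difference was called for DUSP5 (0.07, 95% interval -0.05 to 0.19, edgeR adjusted p = 0.282) or DUSP2 (0.31, -0.12 to 0.73, edgeR adjusted p = 0.190), and their libraries overlapped. Without KO-labelled DMSO replicate 3, the highest DUSP5 library of its group at 20.2 CPM, the DUSP5 estimate was -0.01.

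In neratinib, 7 of the 9 genes were higher and 1 lower in KO-labelled cells, against 34.7% and 36.9% of all genes (71.6% in all). Differences of at least 2-fold were called upward for 5 (DUSP2, DUSP4, DUSP6, DUSP8 and DUSP10), against 7.92% of all genes, and downward for none of the 9, against 3.25% (11.2% in all). DUSP6 was 5.94-fold higher (log2 2.57, SE 0.0878, edgeR adjusted p = 6.44e-28), the reverse of its order in DMSO. The 7 higher genes had every KO-labelled library above every parental one, but the share of all genes that separate in this way was not computed. DUSP2 was 3.68-fold higher (log2 1.88, SE 0.217, edgeR adjusted p = 2.56e-10). DUSP10, DUSP4 and DUSP8 were higher by 1.44, 1.17 and 1.01 on the log2 scale, each with an edgeR adjusted p of at most 5.12e-23.

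DUSP16 and DUSP1 were higher by 0.64 and 0.42 (edgeR adjusted p = 3.02e-30 and 9.43e-18). DUSP5 was the only member called lower, at 6.95, 6.45 and 6.48 CPM in KO-labelled and 7.81, 8.61 and 9.66 CPM in parental neratinib libraries (log2 -0.39, SE 0.0833, edgeR adjusted p = 6.92e-05). For DUSP7 no difference was called, at -0.09 (95% interval -0.24 to 0.07, edgeR adjusted p = 0.319), with overlapping libraries.

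**Figure D3:**
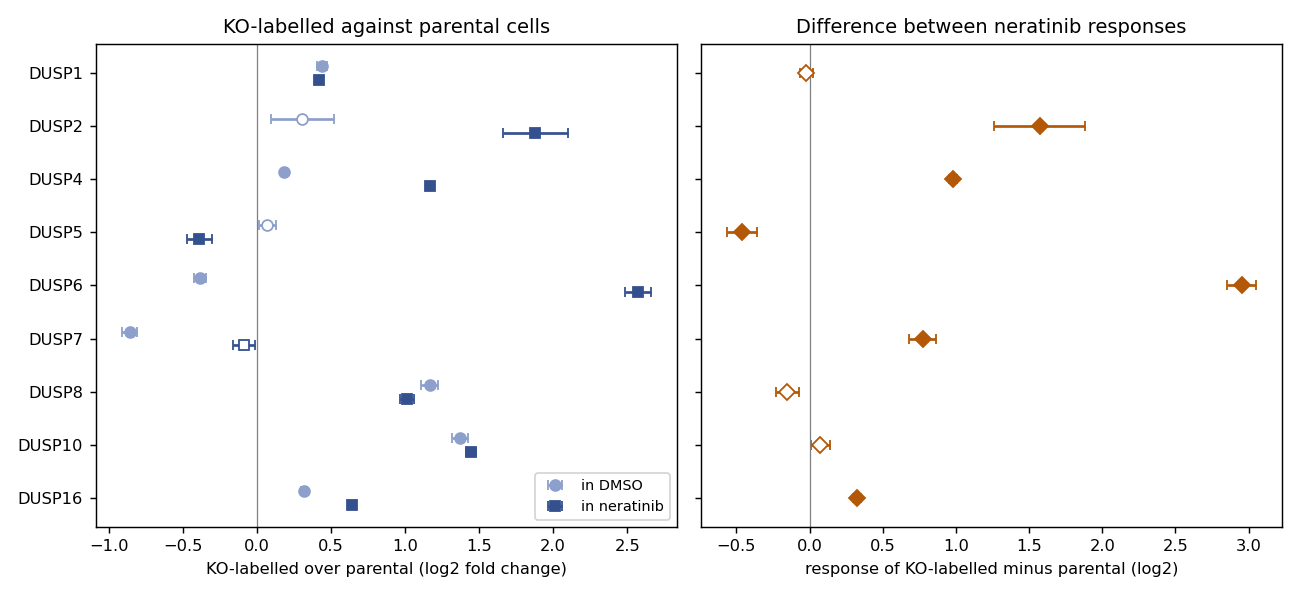
Left, log2 fold change of KO-labelled over parental cells in DMSO (circles) and in neratinib (squares); right, the difference between the neratinib responses, KO-labelled minus parental (diamonds). Bars are standard errors and open symbols did not pass the test; DUSP6 moves from -0.38 in DMSO to 2.57 in neratinib.

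The level summed per length over the 9 genes was lower with neratinib than with DMSO in parental cells and higher in KO-labelled cells. The sum was 116.2 ± 0.329 CPM per kilobase in parental DMSO, 100.9 ± 1.71 in parental neratinib, 139.2 ± 1.01 in KO-labelled DMSO and 165.6 ± 0.807 in KO-labelled neratinib libraries (SD, n = 3). No 2 groups overlapped. The cytoplasmic pair DUSP6 and DUSP7 went from 11.97 ± 0.471 to 1.63 ± 0.0613 CPM per kilobase in parental cells and from 8.33 ± 0.370 to 3.81 ± 0.137 in KO-labelled cells. The JNK and p38 group DUSP8, DUSP10 and DUSP16 went from 30.5 ± 0.367 to 51.5 ± 0.742 in parental cells and from 44.0 ± 0.379 to 92.1 ± 0.723 in KO-labelled cells. The nuclear group of DUSP1, DUSP2, DUSP4 and DUSP5 went from 73.7 ± 0.597 to 47.8 ± 1.02 and from 86.9 ± 1.06 to 69.7 ± 0.462, with DUSP1 rising inside it while DUSP4 fell. Each of these class comparisons had p = 0.1 in a two-sided exact permutation test, the smallest that 3 libraries against 3 can give.

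DUSP4 held the largest share in DMSO, and DUSP16 and DUSP1 the largest in neratinib. DUSP4 went from 43.6% ± 0.196 to 7.73% ± 0.252 of the summed per-length level in parental cells and from 41.4% ± 0.330 to 10.6% ± 0.1100 in KO-labelled cells. DUSP16 reached 38.5% ± 0.389 and 36.6% ± 0.272, and DUSP1 36.1% ± 0.0734 and 29.4% ± 0.222. DUSP10 held 8.60% ± 0.0441 in parental and 14.3% ± 0.312 in KO-labelled neratinib libraries. By group, the JNK and p38 phosphatases held 26.2% ± 0.273 in parental DMSO, 51.0% ± 0.324 in parental neratinib, 31.6% ± 0.452 in KO-labelled DMSO and 55.6% ± 0.218 in KO-labelled neratinib libraries. In KO-labelled DMSO libraries the order was DUSP4, DUSP16, DUSP1, DUSP10, DUSP5, DUSP6, DUSP8, DUSP7 and DUSP2, with no overlap between neighbours. In parental neratinib libraries it was DUSP16, DUSP1, DUSP10, DUSP4, DUSP8, DUSP5, DUSP7, DUSP6 and DUSP2. The libraries of DUSP8 and DUSP5 overlapped there, and DUSP4 stood above DUSP10 with the longest transcript as the length. In KO-labelled neratinib libraries DUSP6 (2.70 ± 0.136 CPM per kilobase) stood just above DUSP5 (2.53 ± 0.107), with overlapping libraries.

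**Figure D4:**
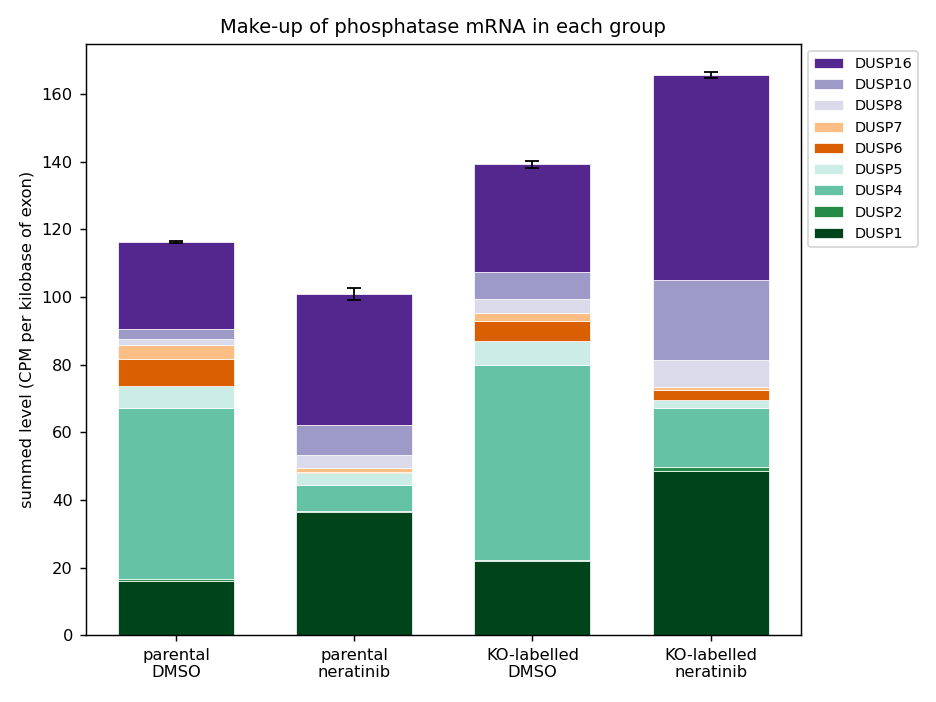
Mean level of each phosphatase gene per kilobase of exon, stacked for the 4 groups; error bars are the SD of the sum over 3 libraries. The DUSP4 part shrinks with neratinib in both genotypes, and the sum is 100.9 in parental and 165.6 CPM per kilobase in KO-labelled neratinib libraries.

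Other feedback and output genes of ERK, like DUSP6, mostly fell with neratinib. Of 15 tested, 13 fell and 1 rose with neratinib in parental cells, with a median log2 fold change of -1.27, against 38.9% of all genes called lower and 41.8% higher. SPRY4, an inhibitor of RAS signalling, fell by 5.10 and the cyclin D1 gene CCND1 by 3.74 on the log2 scale, while SPRED3 rose by 0.45. In KO-labelled cells 12 fell and 2 rose (median -0.85), against 38.4% and 38.9% of all genes, CCND1 by 3.21 and SPRY4 by 3.03 downwards and EGR1 and SPRY2 by 0.98 and 0.62 upwards. The interaction was positive for 9 and negative for 1 of the 15, against 21.5% and 24.6% of all genes, with SPRY4 at 2.07, the receptor gene EPHA2 at 1.79 and SPRED3 at -0.67. Over all genes tested the median interaction was -0.02. Between genotypes, 3 were higher and 9 lower in KO-labelled cells in DMSO (36.0% and 35.6% of all genes), and 9 higher and 5 lower in neratinib (34.7% and 36.9%). MYC, a growth-promoting transcription factor gene, was lowest in both (-2.72 and -2.78), while EPHA2 and ETV5 led the higher genes in neratinib (1.57 and 1.46).

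Immediate-early and stress genes, many of them targets of JNK and p38 signalling, rose in 12 and fell in 4 of 16 cases with neratinib in parental cells (median 0.81), against 41.8% and 38.9% of all genes. ATF3 rose by 2.94 and JUN by 2.28, whereas FOS fell by 0.93 and IER2 by 0.57. In KO-labelled cells 10 rose and 3 fell (median 0.54), against 38.9% and 38.4% of all genes. KO-labelled cells held more of 13 of the 16 in DMSO and of 13 in neratinib, against 36.0% and 34.7% of all genes, with ATF3 at 1.72 and 1.32. The interaction was positive for 4 and negative for 7, against 21.5% and 24.6% of all genes. FOS was at 0.60 and JUNB at 0.30, and BTG2 at -0.78 and JUN at -0.75.

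The kinases that these phosphatases act on, and those upstream, are to be read against the 80.7% of all genes called with neratinib in parental and 77.2% in KO-labelled cells. Of 14 RAS-ERK core genes, 9 fell and 3 rose with neratinib in parental cells (median -0.15), HRAS by 1.54 and the ERK gene MAPK3 by 0.76 downwards and KSR1 and BRAF by 1.04 and 0.88 upwards. In KO-labelled cells 11 fell and 3 rose (median -0.18). Of 13 JNK, p38 and ERK5 pathway kinases, 5 rose and 6 fell in parental cells (median -0.05). The JNK activator gene MAP2K7 rose by 1.00, and the JNK gene MAPK9 fell by 1.18. In DMSO 8 of these 13 were higher and 2 lower in KO-labelled than in parental cells (median 0.19), against 36.0% and 35.6% of all genes, led by the p38 gene MAPK11 at 0.98 and the JNK gene MAPK10 at 0.88. In neratinib the counts were 5 and 4, against 34.7% and 36.9% of all genes.

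Profiles were compared by the root-mean-square difference in log2 CPM over the 12 libraries after centring each gene, among genes with a mean of at least 1 CPM. Libraries of a group share their treatment, so this is a description. Nearest to DUSP6 were MAGEC1 (0.389), LZTS1 (0.472) and ETV5 (0.473); to DUSP4 MBP (0.181), CORO1A (0.188) and MAPK4 (0.207). The distance is not scaled to a gene's range, which was widest among the 9 for DUSP6. Nearest to DUSP7 were SLC25A15 (0.0918), TMEM45B (0.0922) and MRPL12 (0.0945); to DUSP5 EFNA4 (0.102), CREB3L1 (0.105) and RTN4RL1 (0.108). The nearest genes were TSC22D1 (0.0602), SEMA4B (0.0671) and SP100 (0.0704) for DUSP1 and BMP1 (0.274), CAMK2B (0.286) and AGR3 (0.290) for DUSP2. DUSP8 was nearest to ID1 (0.0925), SNED1 (0.106) and PARD3B (0.119), and DUSP10 to RASSF6 (0.0983), PGM2L1 (0.103) and ID3 (0.143). DUSP16 was nearest to EDC3 (0.0603), SCML1 (0.0607) and PDLIM3 (0.0699). Within the family the closest pair was DUSP1 and DUSP16, at 0.221.

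The differences of DUSP6, DUSP10, DUSP4, DUSP8 and DUSP2 between genotypes were set beside those of neighbouring genes on the chromosome. Against the 20 nearest tested protein-coding genes (10 on each side), DUSP6 at 2.57 in neratinib was above all 20, whose median was 0.06 and highest value 0.93. DUSP10 was above all 20 of its neighbours in DMSO (1.37, median -0.03, highest 0.96). In neratinib it was only just above the highest of them (1.44 against 1.40, median -0.16). DUSP2 at 1.88 in neratinib was exceeded by 1 neighbour, at 3.51 (median 0.21). DUSP4 was above all 20 in neratinib (median 0.28), but in DMSO its 0.19 lay under 14 of them (median 0.27). DUSP8 at 1.17 in DMSO was exceeded by 1 neighbour (median -0.02), and at 1.01 in neratinib by 3 (median 0.26).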

How the data were processed

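Single-end 50-base libraries were made from total RNA with an unstranded kit, per the labels' protocols. The deposited table holds whole-number counts per gene. FastQC 0.11.7, STAR 2.7.9, edgeR 3.40.2 and GRCh38 are named in the submitters' processing notes; the counting tool and annotation are not given in the sources used here. Lines that name no gene (581 of 28395) held 0.0877% to 0.124% of counts and were left out. Here the counts were filtered with edgeR's filterByExpr, scaled by TMM and fitted over all 12 libraries with edgeR 4.0.16 quasi-likelihood tests, Benjamini-Hochberg adjusted over 16208 genes and called at 0.05. The script was tested on simulated data. SE is the size of the log2 fold change divided by the root of F. Library totals were 32471198 to 44726160 counts. The biological coefficient of variation, from edgeR's common dispersion between libraries of a group, was 1.86%. Replicates differed by more than sampling noise (chi-square per degree of freedom 1.36 to 3.41). All 9 members were named, with the 3 nearest profiles of each. Genes of a pathway list were named from its 2 largest rises and falls, but not all of these in every comparison. The members and lists were chosen with earlier results of these data known. Alternatives covered scaling, filters, DESeq2 1.42.0, a replicate block and left-out libraries. A planned comparison of protein sequences was not run.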

Additional observations from a re-analysis of the deposited data

Results flagged for a closer look

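The neratinib response of 6 of the 9 phosphatase genes differed between KO-labelled and parental cells when the difference itself was tested (edgeR quasi-likelihood interaction, Benjamini-Hochberg adjusted p from 4.46e-28 to 0.000247). The same test called 46.1% of all genes, so passing alone says little of the 6. A difference of at least 2-fold was called for 3.27% of all genes. As the log2 response of KO-labelled minus that of parental cells, the difference was 2.95 for DUSP6, 1.57 for DUSP2, 0.98 for DUSP4, 0.77 for DUSP7, 0.32 for DUSP16 and -0.46 for DUSP5. DUSP6, DUSP4 and DUSP7 fell less in KO-labelled cells, DUSP5 fell more and DUSP16 rose more. DUSP2 fell in parental and rose in KO-labelled cells, on 15 to 71 counts a library.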

How the results depend on the processing

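Of 841 alternative values of the member log2 fold changes, 834 kept their direction and side of the threshold. Of the others, 6 had the opposite sign without being called. The DUSP5 difference between genotypes in DMSO was -0.013 without KO-labelled DMSO replicate 3 (range over left-out libraries -0.013 to 0.11). The DUSP1 interaction was 0.0011 with RLE scaling and with DESeq2, and 0.0022 to 0.013 without parental DMSO replicate 1 or 3 or parental neratinib replicate 3 (range over left-out libraries -0.058 to 0.013). The DUSP8 interaction was called at -0.21 without parental neratinib replicate 1. Counts of members and of all genes called stayed within 1.5 times in all 94 alternatives each. DUSP2, the member with the fewest counts, was not tested with the 5 CPM filter. Correlations of same-numbered deviations were -0.0210 to 0.0277, under the 0.1 set for pairing. Counting noise in low-count genes also lowers such values, so whether the libraries were paired is not settled. With the replicate block 9, 9, 7, 8 and 6 members and 13031, 12478, 11553, 11512 and 7349 genes were called. The order is neratinib in parental, neratinib in KO-labelled, genotype in DMSO, genotype in neratinib and interaction.

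Class log2 ratios moved beyond the replicate SD in 16 of 128 alternatives, with no sign change. With the longest transcript as the length, the nuclear group was at -0.83 (neratinib, parental), -0.48 (neratinib, KO-labelled) and 0.58 (genotype, neratinib), the cytoplasmic pair at -2.63 and 0.94 (parental, and genotype in neratinib), and the 9 together at -0.34, 0.14 and 0.24 (parental, KO-labelled, and genotype in DMSO). With library totals, the nuclear group was at -0.55 and -0.26, the cytoplasmic pair at -2.80, the JNK and p38 group at 0.83 and 1.12, and the 9 at -0.12, 0.31 and 0.27. Shares of the summed level moved only with the longest transcript. In parental DMSO they became 11.7% (DUSP1), 48.1% (DUSP4), 4.81% (DUSP5), 6.02% (DUSP6), 5.01% (DUSP7), 1.43% (DUSP8), 2.40% (DUSP10) and 20.2% (DUSP16). In parental neratinib they were 33.6% (DUSP1), 9.41% (DUSP4), 1.83% (DUSP7), 8.70% (DUSP10) and 39.0% (DUSP16). In KO-labelled DMSO they were 13.4% (DUSP1), 46.4% (DUSP4), 4.31% (DUSP5), 3.92% (DUSP6), 2.35% (DUSP7), 2.72% (DUSP8), 5.27% (DUSP10) and 21.3% (DUSP16). In KO-labelled neratinib they were 27.1% (DUSP1), 12.8% (DUSP4), 1.44% (DUSP5), 1.04% (DUSP7) and 4.51% (DUSP8).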

Other observations

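Of 15 atypical dual-specificity phosphatase genes tested, 5 rose and 6 fell with neratinib in parental cells, and 6 and 5 in KO-labelled cells. Of all genes, 41.8% and 38.9% were called higher and lower in parental cells and 38.9% and 38.4% in KO-labelled cells, so the list's shares lay near or under those of all genes. DUSP19 rose by 2.49 and 2.06 on the log2 scale in parental and KO-labelled cells, and DUSP14 by 0.84 and 0.88. DUSP3, which acts on ERK and JNK, fell by 1.29 and 1.09, and the cofilin phosphatase gene SSH3 by 1.18 and 1.04. The interaction was called for 3 of the 15, against 46.1% of all genes, with DUSP3 at 0.20.

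Of 4 tyrosine and PPM-type MAP kinase phosphatases tested, 4 rose with neratinib in parental cells, and 3 rose and 1 fell in KO-labelled cells, where 80.7% and 77.2% of all genes were called in the respective comparison. PTPRR, a tyrosine phosphatase of ERK, went from 0.104 ± 0.0676 to 1.45 ± 0.200 CPM in parental and from 0.194 ± 0.0454 to 1.17 ± 0.123 CPM in KO-labelled cells (SD, n = 3), on low counts. PPM1A rose by 0.82 and 0.60. DUSP9, the remaining gene of the typical family, stood at 0.277 ± 0.111 CPM in parental DMSO and 0.139 ± 0.0622 in parental neratinib, and at 0.568 ± 0.204 and 0.340 ± 0.106 in KO-labelled cells. It was 0.98 higher in KO-labelled cells in DMSO and 1.33 higher in neratinib on the log2 scale (edgeR adjusted p = 0.0102 and 0.00804).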
